A study of Mus musculus with 4 samples.

Results

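The transcripts of the mitochondrial genome were taken as all rows of the deposited RPKM tables that lie on chrM of the mouse assembly mm10, and 22 of 23690 genes in the first table met this rule. All 22 were also among the 11835 genes of the second table. They comprise both rRNA genes, mt-Rnr1 (12S) and mt-Rnr2 (16S), and 20 tRNA genes, 12 of them on the plus strand and 8 on the minus strand. RefSeq annotates 37 genes on this molecule. The 13 protein genes, TrnD and TrnK are not analysed here.

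RNA came from LPS-matured bone marrow-derived dendritic cells (maDC) of C57BL/6 mice aged 6 weeks. Mettl3KO cells were from Mettl3 fl/fl CD11c-Cre mice, in which exons of the m6A methyltransferase gene Mettl3 are removed in cells that express CD11c, and Mettl3WT cells were from Mettl3 fl/fl littermates without the Cre. All mice therefore carried the floxed Mettl3 alleles, while only Mettl3KO carried CD11c-Cre, so loss of Mettl3 and presence of the Cre cannot be told apart. Marrow cells of every group were grown with GM-CSF (10 ng/ml) and IL-4 (1 ng/ml), selected with CD11c beads and given LPS (100 ng/ml) for 24 h. There were 4 libraries, 1 of each genotype in each of 2 littermate pairs, and pair 1 and pair 2 are replicate 1 and replicate 2 of the labels.

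The mitochondrial genome is a small circle that is transcribed from both strands into long precursors that carry many genes. In these precursors tRNAs lie between the rRNA and protein genes, and their excision by mitochondrial RNase P at the 5′ end and by Elac2 at the 3′ end frees the neighbouring RNAs. Mitochondrial mRNAs and rRNAs carry short A tails, whereas a mature tRNA ends in an added CCA and has no poly(A) tail. The libraries were made from poly(A)-selected RNA, so a tRNA value here counts what came through this selection, whether mature tRNA, a precursor or a neighbouring transcript.

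The sequences below are from GENCODE transcripts on GRCm38 (mm10), written 5′ to 3′ on the gene's own strand with the anticodon in capitals. The first set is the run of minus-strand tRNA genes for alanine, asparagine, cysteine and tyrosine, neighbours at chrM:5018-5326, which were the abundant tRNAs with the largest Mettl3KO to Mettl3WT ratios in pair 2.
TrnA: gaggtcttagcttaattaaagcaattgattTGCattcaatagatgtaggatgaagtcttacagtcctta
TrnN: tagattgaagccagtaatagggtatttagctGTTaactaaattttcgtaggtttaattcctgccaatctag
TrnC: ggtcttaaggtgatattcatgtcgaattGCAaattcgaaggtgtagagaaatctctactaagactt
TrnY: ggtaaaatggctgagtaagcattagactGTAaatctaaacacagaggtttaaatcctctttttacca
The second set is the most abundant tRNA row, TrnE for glutamate (chrM:14071-14139, minus strand), and the tRNA genes with the smallest ratios in pair 2, TrnP for proline (chrM:15356-15422, minus strand) and TrnL1 for leucine (chrM:2676-2750, plus strand).
TrnE: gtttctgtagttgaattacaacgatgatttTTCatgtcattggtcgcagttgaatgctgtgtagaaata
TrnP: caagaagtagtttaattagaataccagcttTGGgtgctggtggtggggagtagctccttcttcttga
TrnL1: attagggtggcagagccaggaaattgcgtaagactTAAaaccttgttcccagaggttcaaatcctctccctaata
The 20 tRNA genes are 59 to 75 bases long, so each holds little room for a read, and TrnS2, the shortest, has 59.

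Values are RPKM, a read density that takes account of gene length and of sequencing depth. The low values were whole multiples of what a read is worth, and they placed the libraries at 31240000 to 35580000 reads. Mettl3 itself read 5.31 RPKM in Mettl3WT and 4.59 in Mettl3KO of pair 1, and 5.10 and 4.39 in pair 2, over a gene model that includes exons outside the deletion. Among the markers of the labelled cell type, all 12 of the dendritic cell list were in both tables, with a summed level of 7770 and 6837 RPKM (Mettl3WT, then Mettl3KO) in pair 1 and 10872 and 6329 in pair 2. Itgax, which encodes CD11c, read 12.6, 9.66, 17.2 and 51.0 RPKM in the same order. It was the only 1 of these 12 markers that was higher in Mettl3KO in pair 2. The median difference of the list in log2 of (RPKM + 1) was -0.58 in that pair.

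Together the 22 genes, which leave out the protein genes, TrnD and TrnK, took a smaller share of the Mettl3KO library than of the Mettl3WT library in pair 1 and a larger share in pair 2. In pair 1 the share was 0.40% of reads in Mettl3WT (95% Wilson binomial interval 0.398% to 0.402%) and 0.342% in Mettl3KO (0.340% to 0.344%), a ratio of 0.856. In pair 2 it was 0.496% in Mettl3WT (0.494% to 0.499%) and 1.14% in Mettl3KO (1.13% to 1.14%), a ratio of 2.29. The genotype groups thus overlap, because Mettl3KO replicate 1 was the lowest of the 4 libraries and Mettl3KO replicate 2 the highest. These intervals, like all counting intervals here, cover counting error only. Even with the pairing set aside, 2 libraries against 2 cannot give an exact two-sided permutation p below 0.333.

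**Figure D1:**
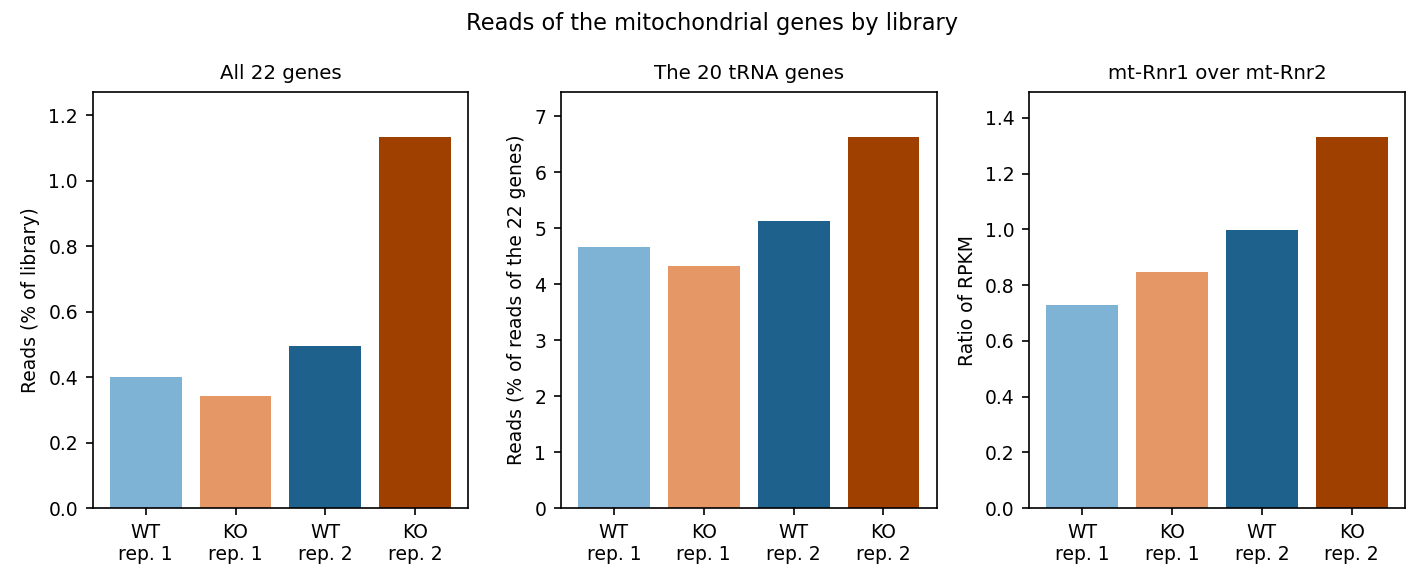
Bars from 0 show, for each library, the reads of the 22 mitochondrial genes as a percent of the library (left), the tRNA part of these reads in percent (middle) and the RPKM of mt-Rnr1 over that of mt-Rnr2 (right), with no replicate error because each bar is 1 library. Mettl3KO replicate 2 is the highest library in all panels, at 1.14%, 6.63% and 1.33.

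The rRNA genes held most of these reads, 93.4% to 95.7% in every library. mt-Rnr1, the RNA of the small subunit of the mitochondrial ribosome (chrM:70-1024), read 1219 RPKM in Mettl3WT and 1160 in Mettl3KO of pair 1, and 1853 and 4949 in pair 2. mt-Rnr2, the RNA of the large subunit (chrM:1094-2675), read 1675 and 1370 RPKM in pair 1, and 1857 and 3713 in pair 2. Both rRNAs were therefore lower in Mettl3KO in pair 1 and higher in pair 2, and their groups overlap.

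Deep counts gave both rRNAs narrow counting intervals within a pair. For mt-Rnr1 the ratio of Mettl3KO to Mettl3WT was 0.952 within pair 1, with a 95% counting interval of 0.938 to 0.965, and 2.67 within pair 2 (2.65 to 2.70). For mt-Rnr2 these ratios were 0.818 (0.810 to 0.826) and 2.0 (1.98 to 2.02). The RPKM of mt-Rnr1 relative to mt-Rnr2 was larger in Mettl3KO in each pair, 0.847 against 0.728 in pair 1 and 1.33 against 0.998 in pair 2. This relative level did not separate the genotypes either, since Mettl3WT of pair 2 lay above Mettl3KO of pair 1. By RPKM the rRNAs ranked 18 to 32 among the 23690 genes of the first table and 9 to 25 in the second.

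**Figure D2:**
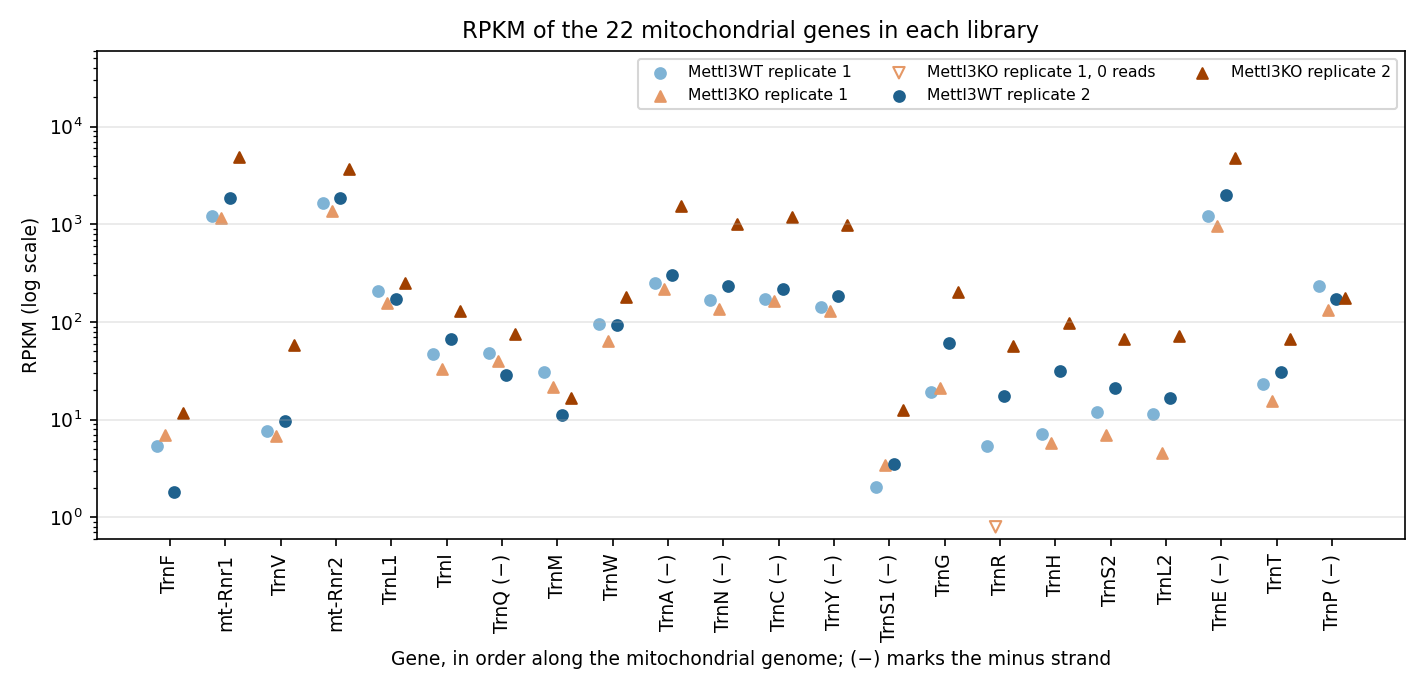
Points show RPKM on a log scale for each of the 22 genes in order along the molecule, circles for Mettl3WT and triangles for Mettl3KO, pale for pair 1 and dark for pair 2, with an open triangle for TrnR at 0 reads. Mettl3KO replicate 2 is the highest library for 20 of the 22 genes.

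The tRNA rows spanned a wide range of levels, with the same genes near the top in all libraries. TrnE was the highest tRNA in each library, at 1214 and 973 RPKM in Mettl3WT and Mettl3KO of pair 1, and 2016 and 4758 in pair 2. It held 43.6% to 54.7% of all tRNA reads. TrnE lies on the minus strand, opposite to most genes of the molecule, and whether its reads are from the tRNA, its precursor or the opposite strand cannot be told apart because the use of strand in counting is not given in the sources used here. At the other end, TrnS1 for serine (anticodon TGA) had 5 to 27 reads per library and TrnF for phenylalanine had 4 to 25. The order of the 22 genes was alike between libraries, with Spearman correlations of their RPKM from 0.883 to 0.977, a description over 22 genes that share their libraries and, in part, their precursors.

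The neighbouring genes TrnA, TrnN, TrnC and TrnY were the abundant tRNAs in which the 2 pairs differed most. TrnA read 250.1 RPKM in Mettl3WT and 219 in Mettl3KO of pair 1, and 306 and 1529 in pair 2. TrnN read 167 and 136 in pair 1, and 233 and 1021 in pair 2. TrnC read 171 and 166 in pair 1, and 219 and 1193 in pair 2. For each of these the first 3 libraries lay close together and Mettl3KO replicate 2 stood alone.

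TrnY gave the same picture, with 144 and 130 RPKM in pair 1, and 183 and 993 in pair 2. In pair 2 the ratio was 5.0 for TrnA (95% counting interval 4.61 to 5.44), 4.38 for TrnN (3.98 to 4.82), 5.45 for TrnC (4.94 to 6.03) and 5.42 for TrnY (4.87 to 6.05). In pair 1 it was 0.875, 0.815, 0.968 and 0.906, and the counting interval lay below 1 for TrnA and TrnN and held 1 for TrnC and TrnY. TrnW for tryptophan, the plus-strand gene that adjoins TrnA, read 96.1 and 64.3 RPKM in pair 1, and 93.8 and 180 in pair 2, a ratio in pair 2 of 1.91 (1.61 to 2.28). The interval of TrnW thus did not reach those of its minus-strand neighbours. The mean RPKM of the minus-strand run relative to TrnW was 1.90 and 2.53 in pair 1 (Mettl3WT, then Mettl3KO) and 2.51 and 6.59 in pair 2. Together these genes held 25.3% to 30.1% of tRNA reads in the first 3 libraries and 42.9% in Mettl3KO replicate 2.

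The other minus-strand tRNAs had smaller ratios than this run in pair 2, although the counting interval of TrnS1 held the ratios of the run. TrnP read 236 and 132 RPKM in pair 1, and 171 and 178 in pair 2, so that its ratio was 0.562 (0.487 to 0.648) in pair 1 and 1.04 (0.899 to 1.21) in pair 2. TrnP was the gene with the smallest ratio in pair 2. TrnQ for glutamine read 48.3 and 40.3 RPKM in pair 1, and 28.5 and 76.2 in pair 2. TrnE had a ratio of 0.802 in pair 1 (0.759 to 0.847) and 2.36 in pair 2 (2.28 to 2.44), near that of the rRNAs. TrnS1 read 2.04 and 3.42 in pair 1, and 3.55 and 12.5 in pair 2, the highest ratio of pair 1 at 1.68, on 5 and 8 reads and with a counting interval that held 1 (0.484 to 6.52). In pair 2 the ratio of TrnS1 was 3.52 (1.56 to 8.97), on 8 and 27 reads. Over the 8 minus-strand tRNAs the median ratio was 0.855 in pair 1 and 3.95 in pair 2, and over the 12 on the plus strand it was 0.701 and 3.12.

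Of the plus-strand tRNA genes beside the rRNAs, TrnF and TrnV were low and TrnL1 was among the more abundant tRNAs. TrnF, the first gene of the molecule (chrM:1-68), read 5.37 and 6.94 RPKM in pair 1, and 1.80 and 11.8 in pair 2. Its ratio of 6.52 in pair 2 was the largest of all members, on 4 and 25 reads, with an interval (2.25 to 25.8) that held the ratio of mt-Rnr1. TrnV for valine, which lies between the rRNA genes, read 7.74 and 6.84 in pair 1, and 9.78 and 58.0 in pair 2, a ratio in pair 2 of 5.93 (3.75 to 9.80). TrnV thus lay above both rRNAs that flank it in pair 2, and its interval did not reach theirs. TrnL1, directly after mt-Rnr2, read 208 and 155 in pair 1, and 172 and 249 in pair 2, with a ratio in pair 2 of 1.45 (1.28 to 1.65), below that of mt-Rnr2. In pair 1 the intervals of TrnF, TrnV and TrnL1 all held the ratio of mt-Rnr2. TrnF was the only member whose genotype groups did not overlap, 1 of 22, where 14.9% of all genes tested had groups that did not overlap.

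Of the other plus-strand tRNAs, TrnI, TrnG and TrnT were highest in Mettl3KO replicate 2. TrnI for isoleucine read 46.8 and 32.9 RPKM in pair 1, and 66.7 and 130.3 in pair 2. TrnM for methionine read 30.5 and 21.4 in pair 1, and 11.1 and 16.7 in pair 2, and its counting interval in pair 2 held 1 (0.878 to 2.61). TrnM was, with TrnP, an exception in which Mettl3KO replicate 2 was not the highest library. TrnG for glycine read 19.0 and 21.3 in pair 1, and 60.4 and 204 in pair 2. TrnT for threonine, which adjoins TrnP on the other strand, read 23.1 and 15.4 in pair 1, and 31.1 and 66.4 in pair 2. The ratio of TrnT in pair 2, 2.13 (1.59 to 2.90), lay above that of TrnP.

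The block TrnH, TrnS2 and TrnL2 (histidine, serine and leucine) had ratios in pair 2 of 3.10, 3.13 and 4.31, and ratios in pair 1 of 0.803, 0.588 and 0.398. TrnL2 read 11.5 and 4.57 RPKM in pair 1, and 16.8 and 72.6 in pair 2. TrnH read 7.13 and 5.72 in pair 1, and 31.6 and 97.9 in pair 2, and TrnS2 read 11.9 and 7.0, then 21.3 and 66.7. All 3 were lowest in Mettl3KO replicate 1 and highest in Mettl3KO replicate 2. TrnR for arginine had 13 reads (5.37 RPKM) in Mettl3WT and was listed at 0 in Mettl3KO of pair 1. Against a floor of 3 reads (1.30 RPKM) for that Mettl3KO library, the Mettl3WT value was 4.13-fold higher. This fold leaves out the counting error of the 13 reads. The counting interval of the TrnR ratio of Mettl3KO to Mettl3WT in pair 1 was 0 to 0.344. In pair 2 TrnR read 17.6 and 57.0 RPKM, a ratio of 3.24 (2.24 to 4.77).

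**Figure D3:**
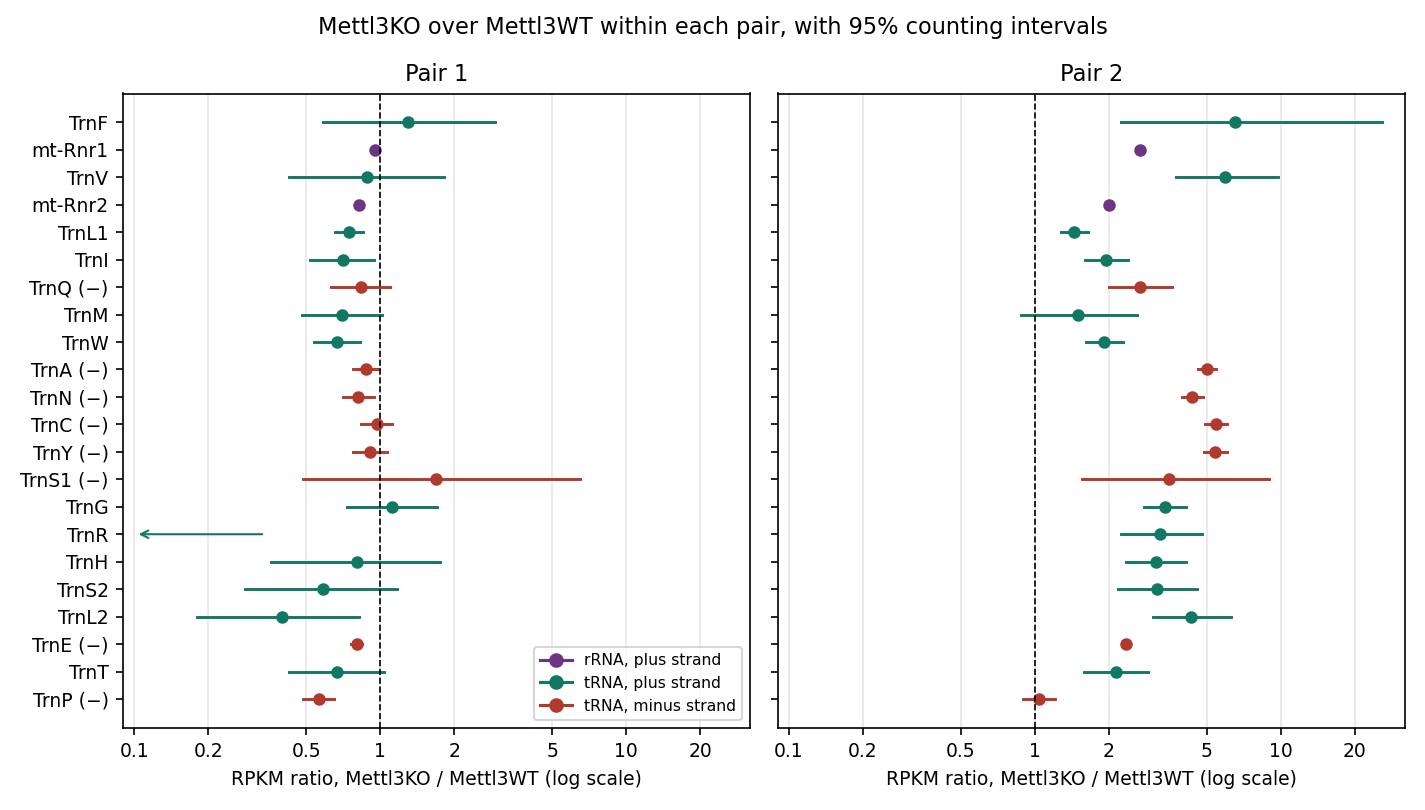
Points show the RPKM ratio of Mettl3KO to Mettl3WT for each gene on a log scale, with bars for the 95% counting interval, in pair 1 (left) and pair 2 (right), coloured by gene class and strand, and an arrow for TrnR at 0 in pair 1. In pair 1 no interval lies wholly above 1, and in pair 2 every interval but those of TrnM and TrnP does.

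Counted over all members, 19 of 22 were lower in Mettl3KO in pair 1, beside 53.3% of all genes tested, and 22 of 22 were higher in pair 2, beside 41.7%. The median ratio was 0.809 in pair 1 and 3.12 in pair 2. Of the counting intervals, 11 lay below 1, 0 above and 11 held 1 in pair 1, whereas 20 lay above 1 and 2 held 1 in pair 2. By the 1.5-fold rule on RPKM + 1, 4 of 22 were lower in pair 1 (TrnL2, TrnR, TrnS2 and TrnP), beside 1.86% of all genes, and 19 of 22 were higher in pair 2, beside 6.46%. None of the members were higher by this rule in pair 1 (2.57% of all genes) or in both pairs (0.731%), none were lower in both (0.476%), and 3 of 22, TrnL2, TrnR and TrnS2, were lower in pair 1 and higher in pair 2, beside 0.281%. Mettl3KO replicate 2 was the highest library for 20 of 22 members, beside 25.9% of all genes, and Mettl3KO replicate 1 lay below both Mettl3WT libraries for 17, beside 26.7%. Members of a common precursor are not independent of each other, so these counts describe the molecule in 4 libraries.

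Libraries of the same genotype also differed between the pairs, more so in Mettl3KO than in Mettl3WT. Mettl3WT of pair 2 was above Mettl3WT of pair 1 for 16 of 22 members, with a median ratio of 1.31 and a range of 0.336 to 4.43. Among members not at 0 in Mettl3KO of pair 1, 20 were higher in Mettl3KO of pair 2 and 1 was lower, with a median ratio of 4.31. TrnR, at 0 in Mettl3KO of pair 1, read 57.0 RPKM in Mettl3KO of pair 2 and was thus higher as well.

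**Figure D4:**
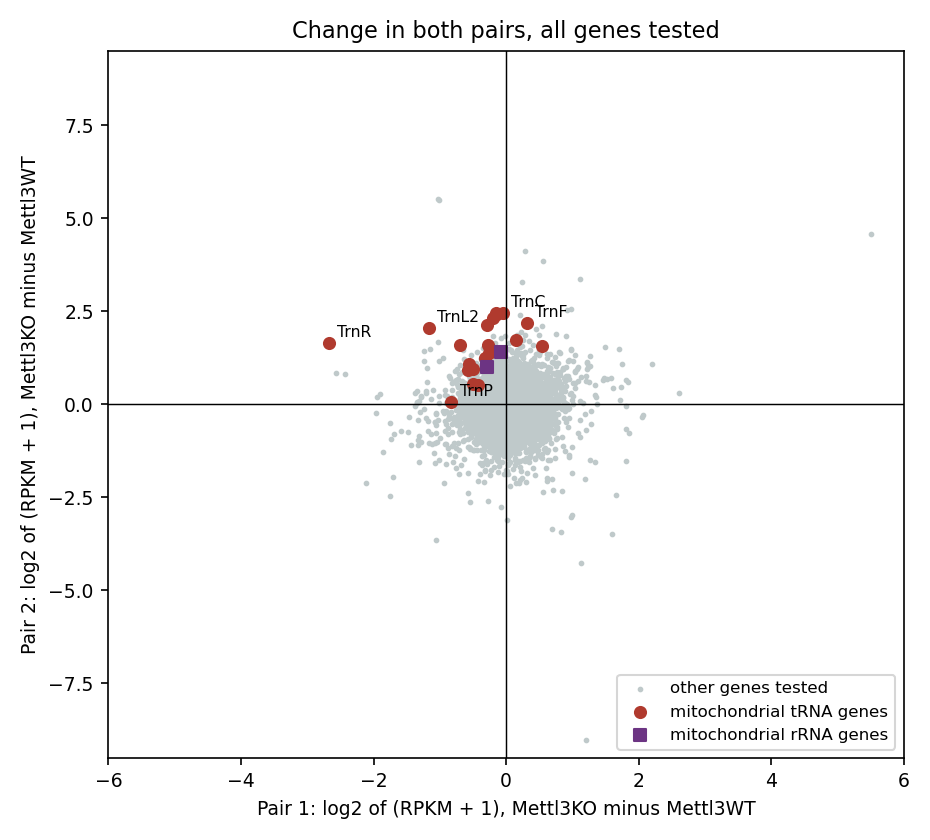
Each point is a gene tested, placed by the difference in log2 of (RPKM + 1) between Mettl3KO and Mettl3WT in pair 1 (horizontal) and in pair 2 (vertical), with the tRNA genes as red circles and the rRNA genes as purple squares. All 22 mitochondrial genes lie above 0 in pair 2, with a median of 1.59, and 19 lie below 0 in pair 1, with a median of -0.29.

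When the genotype was tested over both pairs with limma, on log2 of (RPKM + 1) with the pair as a block, 0 of 22 members passed a Benjamini-Hochberg adjusted p of 0.05. Over all 11757 genes tested, 0.017% passed as higher and 0.0255% as lower. At an unadjusted p under 0.05, 7 members were higher (TrnA, TrnC, TrnF, TrnG, TrnS1, TrnV and TrnY) beside 2.94% of all genes, and none were lower. The fitted log2 change was above 0 for 20 members, with a median of 0.51 beside -0.05 for all genes, and it was -0.38 for TrnP and -0.52 for TrnR. The lowest limma adjusted p was that of TrnS1, with a log2 change of 1.06 ± 0.26 (SE, adjusted p = 0.298), on a gene of at most 27 reads. For TrnC the log2 change was 1.20 ± 0.46 (SE, limma adjusted p = 0.770), made of -0.05 in pair 1 and 2.44 in pair 2. For mt-Rnr1 it was 0.67 ± 0.34 and for mt-Rnr2 0.35 ± 0.32 (SE, limma adjusted p = 0.948 and 0.994). This test rests on 1 residual degree of freedom and a prior worth 8.68, and single libraries decided its calls. Without Mettl3KO replicate 1, and without the block, 11 members passed as higher (TrnA, TrnC, TrnG, TrnH, TrnL2, TrnN, TrnR, TrnS1, TrnS2, TrnV and TrnY), with a median log2 change of 1.79, beside 0.536% of all genes as higher. Without Mettl3KO replicate 2 the median was -0.45, 4 members had a fitted change above 0, and TrnR alone of the members passed, as lower, beside 0.051% of all genes.

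The members were also set against each other within the molecule, apart from its total. As a part of all reads of the 22 genes, 8 members were larger in Mettl3KO in both pairs (mt-Rnr1, TrnF, TrnV, TrnA, TrnC, TrnY, TrnS1 and TrnG), 7 were smaller in both (mt-Rnr2, TrnL1, TrnI, TrnM, TrnW, TrnT and TrnP) and 7 went opposite ways. These counts go by direction alone, without counting error. In pair 1 the ratio of parts was only 1.03 for TrnV and 1.02 for TrnA, and TrnF and TrnS1 had few reads. Since the rRNAs hold most of the reads, a larger part of mt-Rnr1 and a smaller part of mt-Rnr2 are not separate results. For mt-Rnr1 the part was 29.1% and 32.4% in pair 1 (Mettl3WT, then Mettl3KO), and 35.7% and 41.6% in pair 2. For TrnP it was 0.395% and 0.259% in pair 1, and 0.231% and 0.105% in pair 2. Across the 22 genes, the differences in log2 of (RPKM + 1) of the 2 pairs had a Spearman correlation of 0.49 and a Pearson correlation of 0.20, a description over genes that share libraries and precursors.

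**Figure D5:**
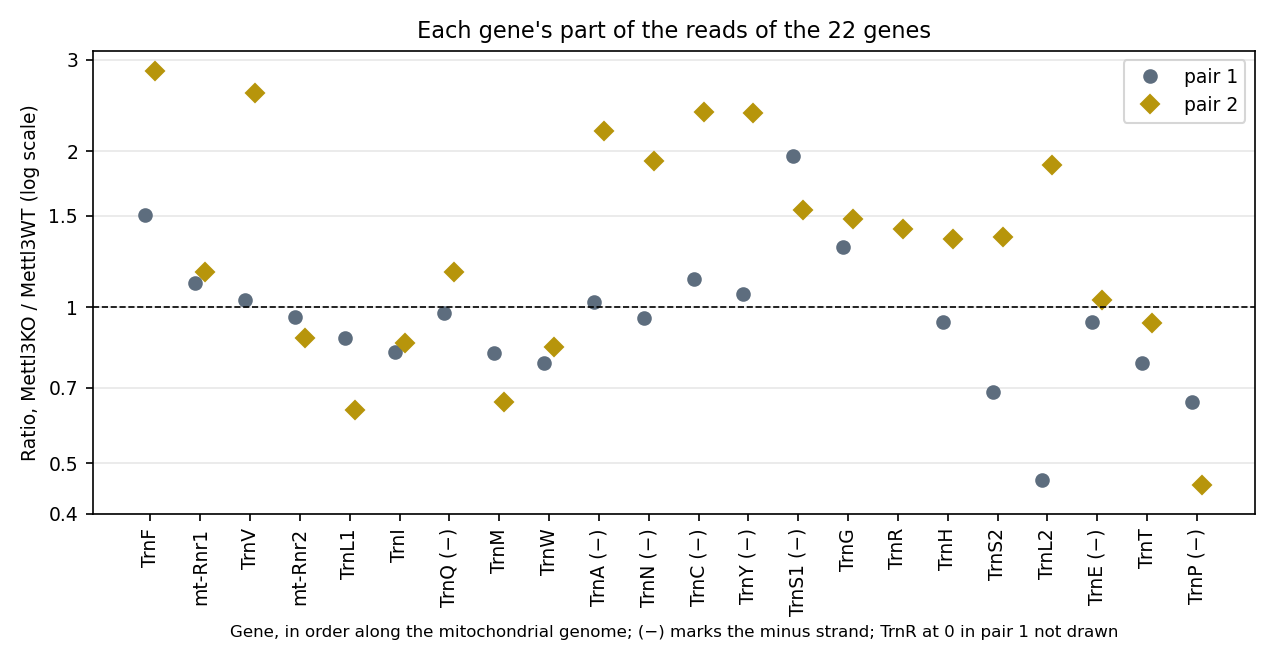
Points show, for each gene along the molecule, the ratio of Mettl3KO to Mettl3WT in its part of all reads of the 22 genes, on a log scale, circles for pair 1 and diamonds for pair 2, with no error shown. mt-Rnr1 lies above 1 in both pairs (1.11 and 1.17), TrnP below 1 in both (0.657 and 0.455), and TrnL2 on opposite sides (0.465 and 1.88).

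GC content of the tRNA genes was set beside these ratios. TrnM, TrnP and TrnL1 had the highest GC content of the tRNA genes, 44.9%, 44.8% and 44.0%, and the smallest ratios in pair 2, 1.5, 1.04 and 1.45. Over the 20 tRNA genes the Spearman correlation of GC content with the difference in log2 of (RPKM + 1) was -0.41 in pair 2 and 0.03 in pair 1. Between the Mettl3WT libraries of the 2 pairs, where the genotype is the same, it was -0.60. Length had correlations of -0.09 in pair 2 and 0.05 in pair 1. The part of base composition in these ratios was not tested.

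Nuclear genes for the upkeep and expression of mtDNA were then compared. The list covers its replication, the transcription, processing, modification and decay of its RNAs, and some nuclear transcription factors. Of 48 symbols listed, 40 were tested and 0 passed in either direction by limma, 0 also at an unadjusted p under 0.05, and their median difference in log2 of (RPKM + 1) was -0.07 in pair 1 and -0.03 in pair 2, beside -0.02 and -0.08 for all genes. Those of the list with the largest fitted change among genes that went the same way in both pairs were 1110008L16Rik, named Prorp by RefSeq and known as the nuclease of mitochondrial RNase P, with 2.60 and 1.63 RPKM in pair 1 and 1.78 and 1.20 in pair 2, Fastkd5 (3.01 and 2.10, then 2.82 and 2.12), which encodes a factor of mitochondrial RNA processing, the rRNA methyltransferase gene Nsun4 (4.16 and 3.96, then 4.85 and 2.88) and the mitochondrial topoisomerase gene Top1mt (0.962 and 1.21, then 1.57 and 2.42). None of these passed the test. Of all 11757 genes tested, 654 had an unadjusted p under 0.05 by limma. Within the list 17 of 40 genes were higher in pair 2, beside 41.7% of all genes tested. All 22 transcripts of the mitochondrial genome were higher in that pair.

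Of the 78 mitochondrial ribosomal protein genes tested, the partners of both rRNAs, 0 passed in either direction by limma. At an unadjusted p under 0.05 there were 4, beside 654 of all 11757 genes. The median log2 difference of these 78 was 0.07 in pair 1 and 0.24 in pair 2. Of them, 58 were higher in pair 2, beside 41.7% of all genes tested. The nuclear subunits of the respiratory chain gave 0 of 36 for complex I, 0 of 9 for complex III, 0 of 13 for complex IV and 0 of 19 for ATP synthase, with medians in pair 2 of 0.18, 0.16, 0.42 and 0.24. At an unadjusted p under 0.05 these counts were 1, 0, 1 and 0. In the same order, 29 of 36, 6 of 9, 12 of 13 and 14 of 19 were higher in pair 2. Cytosolic ribosomal protein genes had a median of 0.46 in pair 2, with 0 of 83 called by limma and 3 at an unadjusted p under 0.05. In pair 2, 75 of the 83 were higher, beside 41.7% of all genes tested, and 26 were higher by the 1.5-fold rule, beside 6.46%. A rise of most genes of a list in pair 2 was thus not particular to the mitochondrial genome. All of these medians were below that of the mitochondrial transcripts in pair 2.

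Some other RNAs that lack a poly(A) tail were also high in Mettl3KO replicate 2, and those named here were chosen after their values were seen. Of 18 symbols listed for nuclear RNAs of this kind, only 3 were tested, and 0 passed by limma (1 at an unadjusted p under 0.05). Rmrp, the RNA of RNase MRP, read 0.409 and 1.07 RPKM in pair 1, and 3.01 and 57.3 in pair 2. Rpph1, the RNA of nuclear RNase P, was listed only in the second table, at 4.15 RPKM in Mettl3WT and 739 in Mettl3KO. The Y RNA Rny3, also listed only there, read 1.21 and 7.29. Of 59 snoRNA genes, a list added after the data were seen, 10 were higher by the 1.5-fold rule in pair 2, beside 6.46% of all genes, with a median log2 difference of 0.04. By limma 0 of the 59 passed, and 10 had an unadjusted p under 0.05, beside 654 of all 11757 genes. Rmrp, Rpph1 and Rny3 thus shared the library in which the mitochondrial transcripts were highest.

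The rows of the 18S, 7SK, U1 and U5 RNAs had no such excess. The 18S rRNA row Rn18s-rs5 read 469.6 and 467 RPKM in pair 1, and 1464 and 1226 in pair 2. The 7SK RNA Rn7sk read 99.0 and 113, then 435 and 472, and the U1 RNA row Rnu1a1 read 47.6 and 50.0, then 314 and 148. The U5 RNA row Rnu5g read 0.969 and 2.03, then 13.5 and 2.48, and so was lower in Mettl3KO in pair 2. All of these were higher in both libraries of pair 2 than in both of pair 1, and none stood apart in Mettl3KO replicate 2. The U7 RNA Rnu7, listed only in the first table, read 1.36 RPKM in Mettl3WT and 6.18 in Mettl3KO. Of the listed replication-dependent histone genes, 9 were tested and 0 passed by limma (2 at an unadjusted p under 0.05), with a median of 0.13 in pair 2. By the 1.5-fold rule 3 of these 9 were higher in pair 2, beside 6.46% of all genes. How much of the difference in the mitochondrial transcripts lies in the carry-over of RNA without poly(A) tails was not tested.

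Markers of other cell types moved between the libraries as well. The 7 granulocyte markers in both tables, of 16 listed, summed to 4263 and 7163 RPKM in pair 1, with a ratio of 1.78 over the 15 listed in the first table, and to 5846 and 3768 in pair 2, a ratio of 0.644. The 13 of 14 monocyte or macrophage markers summed to 4435 and 5457 in pair 1, and 11669 and 16456 in pair 2. The only mast cell or basophil marker of 6 in both tables summed to 19.8 and 14.5, then 20.7 and 4.23. None of the 9 lymphocyte or 6 erythroid markers were in both tables, and the second table lists only genes above 1 RPKM. The granulocyte markers thus ran opposite to the mitochondrial transcripts in each pair, and their part in the result was not tested. In bulk RNA fewer cells of a type and less RNA per cell cannot be told apart.

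A search of the other GENCODE transcripts found near-identical copies, at 90% identity or more over 80% or more of the gene, for 2 of the 22 members. Both lie in Cep295, with 93.5% identity over 82.7% of TrnL1 and 91.5% identity over the whole of TrnN. How reads that match both were assigned is not given in the sources used here, so the values of TrnL1 and TrnN are uncertain to that extent. Nuclear DNA outside the GENCODE transcripts was not searched, so copies of any member there are not known. TrnI and TrnQ overlap on opposite strands, and TrnS2 and TrnL2 share their boundary base.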

How the data were processed

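Per the labels and the study's methods, poly(A) RNA was sequenced and the authors made RPKM values with bcl2fastq, TopHat2 2.0.14 and Cuffnorm on mm10. Not given in the sources used here were the annotation, the use of strand and the handling of reads that match more than once. The deposited RPKM tables hold 1 pair each, and they also hold the authors' fold changes, p-values and q-values, which were not used. The second table lists only genes above 1 RPKM in both libraries. Library sizes were recovered from low values, all of which were whole reads within 0.1 of a read, and reads per gene were computed from them. The share of a library is the sum of recovered reads over its size, with Wilson binomial 95% intervals. Ratios carry 95% counting intervals.

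Genotype was tested with limma 3.58.1 (R 4.3.3), with intensity trend, on log2 of (RPKM + 1) over 11757 genes of a mean of at least 1 RPKM, with the pair as a block. Pairing comes from the littermates and tables, and libraries of the same pair deviated together (correlation 0.697). The procedure was tested on simulated data with large changes that were the same in both pairs. That test does not cover changes that differ between the pairs. Within each pair a rule of 1.5-fold on RPKM + 1 was applied. All members are named, and of the nuclear list the 4 genes with the largest fitted change in the same direction. Copies were searched with blastn 2.17.0, and gene names and positions were matched to RefSeq for 22 of 22. Members and lists were chosen with earlier results of these data known. Alternatives were other pseudocounts, filters and scalings, no trend, no block and each library left out.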

Additional observations from a re-analysis of the deposited data

How the results depend on the processing

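Of the limma results, 0 of 22 members passed with a pseudocount of 0.1, without the filter, with a minimum of 5 RPKM, without the trend, without the replicate block, with median-of-ratios scaling and with scaling to reads outside chrM, and 20 of 22 fitted changes stayed above 0 in each (3, 6, 7, 7, 1, 6 and 7 members at an unadjusted p under 0.05, beside 578, 646, 417, 646, 78, 661 and 709 of all genes). Over all genes 5 were called, against 1 with a pseudocount of 0.1, 8 with scaling to reads outside chrM and 0 with no pair block. With a library left out, and so without the block, 1 to 118 genes and 0 to 11 members were called. This assumes that the lone library of a group varies like the others. The directions of 18 members then depended on the library, with log2 changes from -0.37 to 1.72 for mt-Rnr1, -0.36 to 1.07 for mt-Rnr2, -0.31 to 2.60 for TrnV, -0.29 to 0.40 for TrnL1, -0.75 to 1.21 for TrnI, -0.66 to 0.72 for TrnM, -0.56 to 0.91 for TrnW, -0.34 to 2.46 for TrnA, -0.53 to 2.37 for TrnN, -0.22 to 2.62 for TrnC, -0.31 to 2.61 for TrnY, -0.66 to 2.55 for TrnG, -3.44 to 2.41 for TrnR, -1.28 to 2.60 for TrnH, -1.09 to 2.0 for TrnS2, -1.42 to 2.30 for TrnL2, -0.68 to 1.60 for TrnE and -0.76 to 1.28 for TrnT. Removing Mettl3KO replicate 2 turned 16 of them, Mettl3WT replicate 2 turned 3, and Mettl3WT replicate 1 and Mettl3KO replicate 1 turned 2 each. TrnF, TrnQ, TrnS1 and TrnP kept their direction. Within a pair, a rule of 2-fold left 2 members lower in pair 1, against 4 at 1.5-fold, and a pseudocount of 0.1 made 1 member higher there, against 0. The log2 ratio of the share of reads was -0.22 in pair 1 and 1.19 in pair 2, against -0.34 and 1.57 without the rRNA genes. For the rRNA genes alone this log2 ratio was -0.22 and 1.17, and with an effective length, applied to the rRNA genes only, -0.22 and 1.16. The share of protein genes was not run, as no such rows were used here. Members of few reads, TrnF, TrnS1 and TrnR among them, are limited by counting.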
